A study of Vuilleminia comedens with 3 samples.

Results

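Aryl-alcohol dehydrogenases and aldo/keto reductases of the wood-decay fungus Vuilleminia comedens were described across 3 RNA-seq libraries. A transcript was taken as a member where the product name of its best database match held the words aryl-alcohol dehydrogenase or aldo/keto reductase, or a spelling variant of either. By this rule, 218 of 81106 assembled transcripts were members, out of 22605 transcripts with any match. The name aryl-alcohol dehydrogenase was carried by 20 members and the name aldo/keto reductase by 198, and no member carried both. The rule used names only and no measured value. One further transcript, TRINITY_DN17395_c1_g1_i1, had the spelling "aldo keto reductase" without a mark and was not taken in. It had 12, 2 and 8 reads in the 3 libraries.

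The libraries came from autoclaved beech blocks of 2 cm3 that strain VcWVJH1 had colonised for about 8 weeks on 0.5% malt extract plates. After surface mycelium had been scraped off, blocks of this strain were set in pairs for 7 days at 20 °C, with an elastic band that was taken away after 3 days. RNA was taken from the part of each block that faced its partner, and poly(A) RNA was sequenced as paired reads. All 3 libraries belong to this 1 group of self-paired blocks of 1 strain, and there is no second condition to set against it. The labels describe them as independent libraries, and the spread given here is that between these libraries. The count columns carry no replicate numbers and are called libraries A, B and C.

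Aryl-alcohol dehydrogenases are enzymes of the aldo/keto reductase superfamily that reduce aromatic aldehydes to the corresponding alcohols with NADPH. In white-rot fungi such as Phanerochaete chrysosporium they are known for acting on veratraldehyde and related products of lignin breakdown. The alcohols formed are substrates of aryl-alcohol oxidases, which give hydrogen peroxide, and veratryl alcohol is a substrate of lignin peroxidases. Other aldo/keto reductases use NADPH to reduce sugars, ketones and a wide range of carbonyl compounds, and the product name alone does not say which.

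The depth was 111754018 counts for library A, 68151997 for B and 64236917 for C. In them, 2 transcripts with other names took 70.1%, 67.0% and 69.3% of all counts. Levels are given in RPKM, the counts per 1000000 of the library and per kilobase of transcript. The library total includes these 2 transcripts, so RPKM also depends on their share. Where stated, levels are therefore given in residual CPM, the counts per 1000000 of those outside these 2 transcripts. The separate counting of the 3 libraries was checked on the members: among the 122 with at least 10 reads in every library, the chi-square between a pair of libraries had a median per transcript of 3.78 (A and B), 6.23 (A and C) and 5.26 (B and C), so no library repeated another.

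A transcript name such as TRINITY_DN27805_c2_g7_i2 gives the read cluster (DN27805), the assembler gene within it (c2_g7) and the isoform (i2). The 218 members came from 160 assembler genes in 109 read clusters and matched 65 database entries. Their median length was 401.5 bp, against 642 bp over all matched transcripts, and 124 were under 500 bp. Members matched to Punctularia strigosozonata were shorter than matches to that species as a whole, at a median of 429 bp against 1327 bp over all such matches. Those matched to Trametes versicolor were not, at 355.5 bp against 342 bp. Among the 20 aryl-alcohol dehydrogenases the median was 250 bp and 15 were under 500 bp. With several transcripts per assembler gene, the number of members is not a number of genes. At least 100 reads were counted on 110 members, or 50.5%, against 50.7% of all matched transcripts. Of these 110, 12 were aryl-alcohol dehydrogenases. By species matched, the share was 64.8% of members against 78.7% of all such transcripts for P. strigosozonata. For T. versicolor it was 35.2% against 26.4%. Fewer than 10 reads fell on 35 members, or 16.1%, against 20.8% of all matched transcripts. Library A, the deepest, lacked counts for 4 members, B for 29 and C for 33, and no member had 0 in all 3. The same shares over all matched transcripts were not taken. In library B the median of all transcripts matched to T. versicolor was 0 RPKM, so such absences were not particular to the members.

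The label of the set rests on names of matched entries in other species. The best match was in Punctularia strigosozonata, a relative of V. comedens in the order Corticiales, for 105 members. It was in the polypore Trametes versicolor for 108, in Stereum hirsutum for 3 and in Moniliophthora roreri for 2. The names did not separate along assembler genes. In 4 assembler genes, with 19 members between them, some isoforms were named aryl-alcohol dehydrogenase and others aldo/keto reductase. The division into these 2 names below is thus one of best matches and not of distinct genes. Which species' entry was best also varied within a gene, as 7 assembler genes with 30 members had matches in more than 1 species.

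Together the members took 355951, 286816 and 231638 counts across A, B and C. Of the counts outside the 2 dominant transcripts, A gave 1.06% to them (exact 95% interval 1.061 to 1.068). The share was 1.28% (1.271 to 1.280) for B and 1.17% (1.168 to 1.178) for C. The 3 intervals, which cover counting error only, do not overlap, and library B was highest. Summed levels were 3386, 4528 and 3858 RPKM across A, B and C, with a mean of 3924 ± 574 RPKM (SD, n = 3). On the residual scale the mean was 11708 ± 1057 CPM (SD, n = 3).

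These levels were concentrated in few members. The highest member held 18.1% ± 2.71 of the summed RPKM (SD, n = 3), the first 5 held 46.7% ± 3.44 and the first 20 held 81.1% ± 1.84. Only 9 members lay between 100 and 1000 RPKM, and they made up 63.8% of the sum. Another 37 lay between 10 and 100 RPKM, with 29.9% of the sum. The 116 members below 1 RPKM added 0.944%. As shares of the members, 4.13% were between 100 and 1000 RPKM and 17.0% between 10 and 100, against 1.29% and 9.48% of all matched transcripts.

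The median member stood at 0.866 ± 0.0496 RPKM, against 0.500 ± 0.0768 RPKM for all matched transcripts (SD over libraries, n = 3 for both). A level of at least 1 RPKM in every library was reached by 95 of 218 members, or 43.6%, against 33.8% of all matched transcripts. By the species matched, the 2 gaps differed in size. Of the members matched to P. strigosozonata, 61 of 105 (58.1%) reached this level, against 54.4% of all transcripts matched to that species. Of those matched to T. versicolor, 30 of 108 (27.8%) did, against 16.1%. No test was made, since 1 group of 3 libraries gives none for a list.

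The most abundant member was an aldo/keto reductase, TRINITY_DN23357_c0_g1_i1, of 1155 bp and matched to PUNSTDRAFT_95399. Across A, B and C its counts were 75793, 56415 and 60377, which is 587, 717 and 814 RPKM. Its mean of 706 ± 114 RPKM (SD, n = 3) placed it at rank 12 among the 11218 matched transcripts of at least 300 bp and 100 reads. It was the only member matched to that entry. Its read cluster held 1 further transcript, which had no match and 2.39% of the cluster's RPKM.

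The next assembler gene, DN26389_c0_g1, had isoforms of 1064 and 1058 bp, both named aldo/keto reductase after the same entry of T. versicolor. Isoform i2 stood at 198, 375 and 314 RPKM across A, B and C, with a mean of 295 ± 89.8 RPKM (SD, n = 3). Isoform i1 stood at 211, 349 and 306 RPKM, with a mean of 289 ± 70.3 RPKM (SD, n = 3). Both were lowest in library A and highest in library B, and their means differed by less than either SD. How reads common to such isoforms were divided was not given in the sources used here, so the summed level of the gene is the firmer value. It was 409, 723 and 620 RPKM, with a mean of 584 ± 160 RPKM (SD, n = 3).

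TRINITY_DN20628_c0_g1_i1 of 1273 bp, matched to PUNSTDRAFT_92713, had 40477, 33879 and 16763 counts. Its levels were 285, 391 and 205 RPKM across A, B and C (293 ± 93.1, SD, n = 3), lowest in library C. Its mean lay within 1 SD of the means of both DN26389 isoforms, so these 3 transcripts have no firm order. TRINITY_DN21638_c0_g1_i1 (1200 bp, PUNSTDRAFT_121656) stood at 126, 108 and 154 RPKM (129 ± 23.0, SD, n = 3) and was lowest in library B. TRINITY_DN25578_c0_g1_i1 (1304 bp, PUNSTDRAFT_107582) stood at 93.0, 158 and 108 RPKM (120 ± 34.1, SD, n = 3) and was highest in library B. The ranges of the last 2 overlapped.

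**Figure D1:**
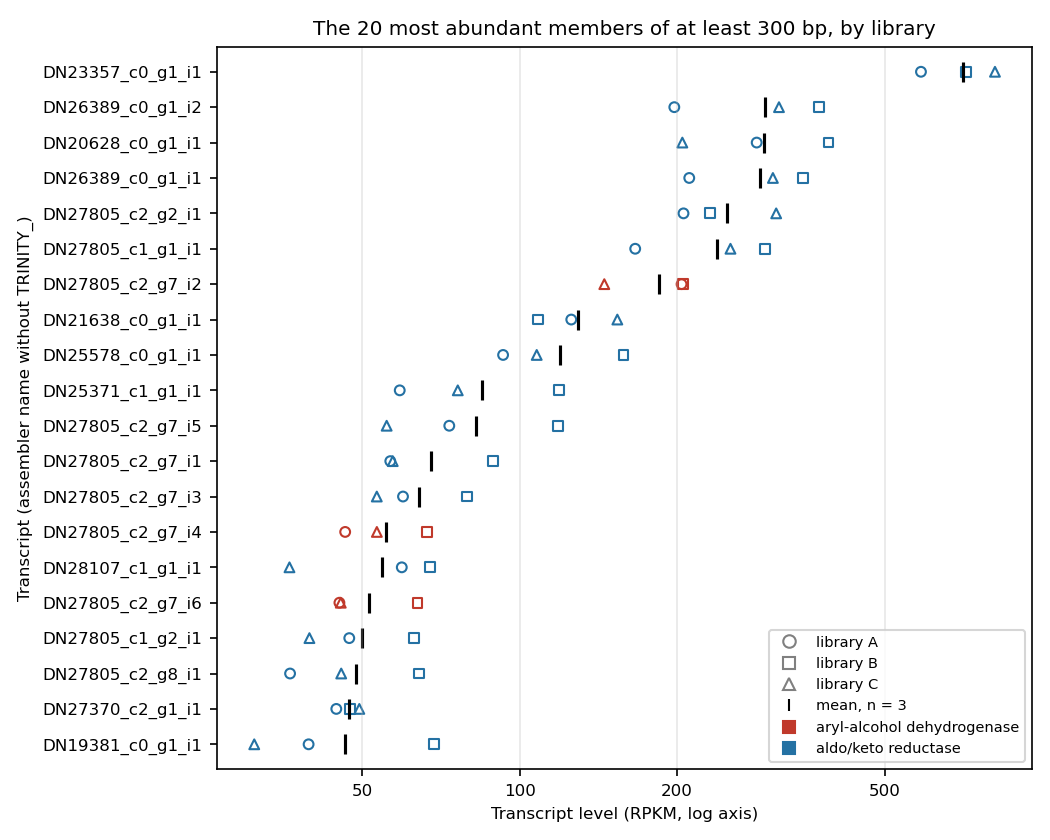
Transcript level in RPKM (log axis) of the 20 most abundant members with at least 300 bp and 100 reads, with a symbol for each of the 3 libraries and a bar at their mean; colour gives the product name. The first transcript lies between 587 and 814 RPKM, above every library value of the other 19, and 3 of the 20 carry the name aryl-alcohol dehydrogenase.

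The aryl-alcohol dehydrogenases summed to 383, 475 and 360 RPKM across A, B and C, with a mean of 406 ± 60.9 RPKM (SD, n = 3). The aldo/keto reductases summed to 3004, 4053 and 3498 RPKM, with a mean of 3518 ± 525 RPKM (SD, n = 3). The ratio of aryl-alcohol dehydrogenase to aldo/keto reductase was 0.127, 0.117 and 0.103 (0.116 ± 0.0123, SD, n = 3). Without the division by length it was 0.0864 ± 0.0109 (SD, n = 3). At least 1 RPKM in every library was reached by 12 of the 20 aryl-alcohol dehydrogenases and 83 of the 198 aldo/keto reductases, beside the 33.8% of all matched transcripts. Among P. strigosozonata matches these were 10 of 11 aryl-alcohol dehydrogenases and 51 of 94 aldo/keto reductases, beside 54.4% of all such transcripts. Among T. versicolor matches they were 2 of 8 and 28 of 100, beside 16.1%. The 11 aryl-alcohol dehydrogenases matched to P. strigosozonata came from 8 assembler genes in 3 read clusters, so they are not independent cases.

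Nearly all of the aryl-alcohol dehydrogenase level came from a single matched entry, PUNSTDRAFT_146241. Its 8 transcripts, from 6 assembler genes, summed to 361, 435 and 333 RPKM (376 ± 52.5, SD, n = 3). The highest, TRINITY_DN27805_c2_g7_i2 of 839 bp, had 19154, 11760 and 7831 counts. Its levels across A, B and C were 204, 206 and 145 RPKM (185 ± 34.5, SD, n = 3). It was close to level in libraries A and B and lower in library C. Isoforms i4 (839 bp) and i6 (819 bp) of the same assembler gene averaged 55.4 ± 10.2 and 51.5 ± 10.7 RPKM (SD, n = 3 each). Isoform i4 was the higher of these 2 in each library, and their means differed by less than either SD. The other 5 transcripts of this entry were 206 to 313 bp long and averaged 11.8 to 19.1 RPKM.

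A second entry, PUNSTDRAFT_55299, accounted for 3 aryl-alcohol dehydrogenase transcripts. Isoform i2 of assembler gene DN19381_c0_g3 stood at 5.55, 12.8 and 8.41 RPKM across A, B and C, and isoform i1 at 6.79, 13.7 and 5.82 RPKM. Both were highest in library B, by 2.31-fold and 2.34-fold over their lowest library. Among the 12 aryl-alcohol dehydrogenases with at least 100 reads they were the only 2 with more than a 2-fold spread, or 16.7%, near the 21.5% of all transcripts with at least 100 reads. The third transcript, DN19381_c0_g2_i1, had 4 reads in all.

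Of the 8 aryl-alcohol dehydrogenases matched to T. versicolor, 2 had at least 100 reads. TRINITY_DN4778_c0_g2_i1, the longest of all 20 at 2261 bp, stood at 5.26, 9.96 and 8.37 RPKM (7.86 ± 2.39, SD, n = 3) and was lowest in library A. TRINITY_DN4778_c0_g1_i1 (1605 bp), of the same read cluster, averaged 1.98 ± 0.378 RPKM (SD, n = 3). TRINITY_DN25244_c0_g1_i1 (259 bp) had 47, 20 and 1 reads across A, B and C. The remaining 5 had 3 to 13 reads each. A single transcript of 223 bp matched to S. hirsutum, TRINITY_DN34040_c0_g2_i1, had 17 reads.

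Of the read clusters with members, DN27805 had the highest summed RPKM. It held 17 transcripts, all of them members. They fell into 12 assembler genes, matched 5 entries of 3 species and carried both product names. Their summed level was 1075, 1440 and 1211 RPKM across A, B and C (1242 ± 184, SD, n = 3). The transcripts named aryl-alcohol dehydrogenase gave 358 ± 50.2 RPKM of this and those named aldo/keto reductase 884 ± 149 RPKM (SD, n = 3 each). Every one of the 17 had at least 100 reads. Together they had 189255 reads, fewer than the 192585 of the single transcript TRINITY_DN23357_c0_g1_i1.

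Within it, assembler gene DN27805_c2_g7 had 6 isoforms that summed to 485, 623 and 410 RPKM (506 ± 108, SD, n = 3). Isoforms i2, i4 and i6, of 819 to 839 bp, matched PUNSTDRAFT_146241 and were named aryl-alcohol dehydrogenase. Isoforms i1 (822 bp) and i5 (672 bp) matched PUNSTDRAFT_123337 and were named aldo/keto reductase, with means of 67.6 ± 18.6 and 82.5 ± 32.4 RPKM (SD, n = 3 each). Isoform i3 (552 bp) matched STEHIDRAFT_121157, also an aldo/keto reductase, with 64.1 ± 13.5 RPKM (SD, n = 3). The library ranges of i1, i3, i4, i5 and i6 overlapped, and i2 was above them in every library. Isoforms of both names thus stood in 1 assembler gene, and how its reads were divided among them was not tested.

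Most of the other high transcripts of this cluster were short. TRINITY_DN27805_c2_g2_i1 (585 bp) stood at 206, 231 and 310 RPKM (249 ± 54.3, SD, n = 3) and TRINITY_DN27805_c1_g1_i1 (519 bp) at 167, 296 and 253 RPKM (239 ± 65.8, SD, n = 3). Both were lowest in library A, while the first was highest in library C and the second in library B. TRINITY_DN27805_c2_g4_i1 (227 bp) varied little, with 74.1, 76.0 and 71.5 RPKM. TRINITY_DN27805_c1_g2_i1, the longest of the cluster at 1432 bp, averaged 49.8 ± 11.8 RPKM (SD, n = 3). TRINITY_DN27805_c2_g8_i1 (521 bp), its single transcript matched to T. versicolor, averaged 48.7 ± 14.2 RPKM (SD, n = 3).

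**Figure D2:**
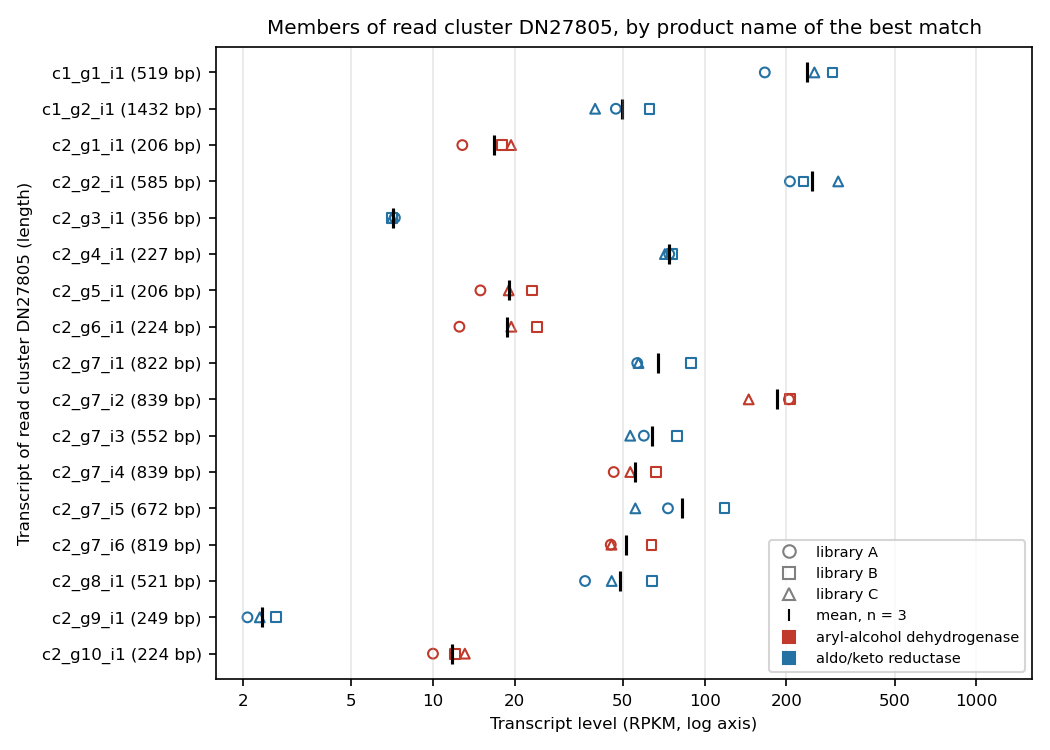
Levels in RPKM (log axis) of the 17 transcripts of read cluster DN27805, in order of their assembler names, with a symbol per library, a bar at the mean and colour by product name. Both colours occur within assembler gene c2_g7, and the aryl-alcohol dehydrogenase transcripts outside it, of 206 to 224 bp, average between 11.8 and 19.1 RPKM.

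In RPKM summed by matched entry, PUNSTDRAFT_123337 came first. Its 17 transcripts from 13 assembler genes gave 775, 1083 and 934 RPKM across A, B and C (931 ± 154, SD, n = 3), or 23.7% of the members' sum. They included short transcripts of other read clusters, such as TRINITY_DN19381_c0_g1_i1 (302 bp) at 39.4, 68.5 and 31.0 RPKM. PUNSTDRAFT_95399 followed with its single transcript. It was the lower of these 2 entries in each library, though their ranges over the libraries overlapped. The T. versicolor entry of DN26389 came next at 584 ± 160 RPKM and PUNSTDRAFT_146241, the leading aryl-alcohol dehydrogenase, after it at 376 ± 52.5 RPKM (SD, n = 3 each). The first 7 entries made up 80.0% of the sum. This order rests on RPKM added over many short transcripts. By reads, PUNSTDRAFT_95399 had 192585 and the T. versicolor entry of DN26389 had 143074, both above the 124753 of PUNSTDRAFT_123337. The entry with the most transcripts, PUNSTDRAFT_102221 with 19, reached 17.6 RPKM.

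**Figure D3:**
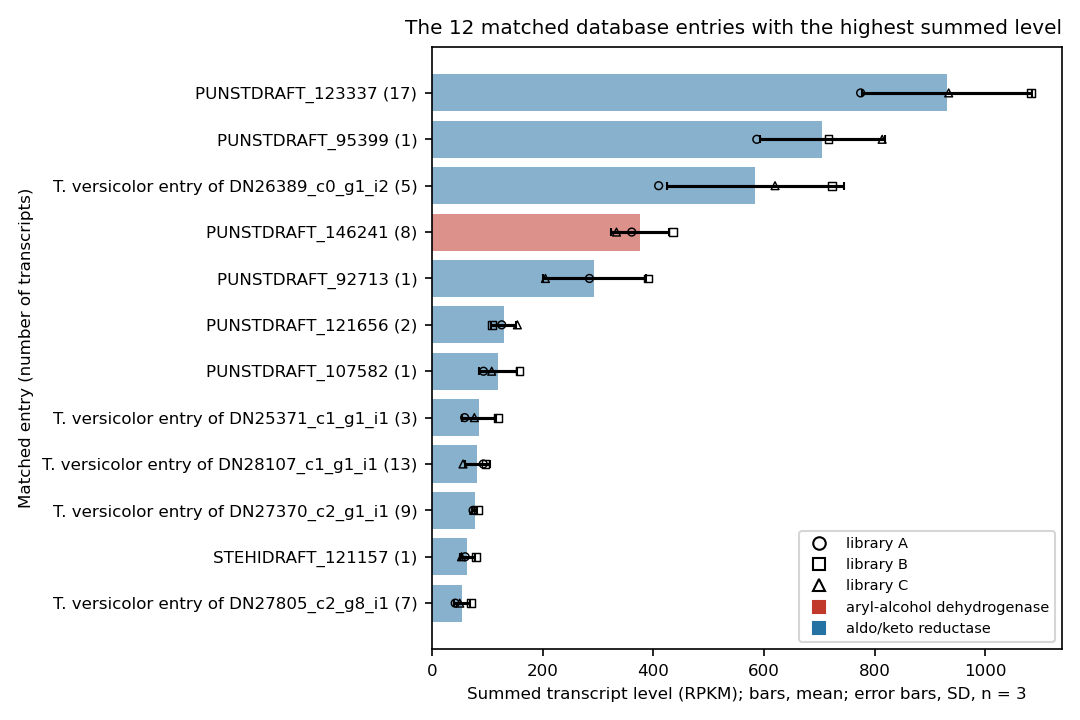
Summed RPKM of all member transcripts matched to the same database entry, for the 12 highest entries, with the number of transcripts in parentheses; bars are means, error bars SD over 3 libraries and symbols the libraries. A single bar, PUNSTDRAFT_146241 at 376 RPKM, is an aryl-alcohol dehydrogenase, and the first 7 entries hold 80.0% of the members' sum.

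By species matched, the P. strigosozonata members summed to 2474, 3167 and 2782 RPKM (2808 ± 347, SD, n = 3) and the T. versicolor members to 835, 1257 and 999 RPKM (1030 ± 213, SD, n = 3). The 3 S. hirsutum members gave 80.5 ± 15.2 RPKM and the 2 of M. roreri 5.36 ± 0.386 RPKM (SD, n = 3 each). Besides DN26389, the highest T. versicolor members were TRINITY_DN25371_c1_g1_i1 (514 bp) at 58.9, 119 and 76.1 RPKM, TRINITY_DN28107_c1_g1_i1 (1349 bp) at 59.5, 67.5 and 36.2 RPKM, TRINITY_DN27805_c2_g8_i1, given above, and TRINITY_DN27370_c2_g1_i1 (1194 bp) at 44.6, 47.3 and 49.3 RPKM. The first of these was highest in library B and the second lowest in library C, while TRINITY_DN27370_c2_g1_i1 varied little. Its isoform i2 (1352 bp) stood lower, at 15.9 ± 3.42 RPKM (SD, n = 3). The highest M. roreri member, TRINITY_DN27709_c0_g2_i5, averaged 3.70 ± 0.145 RPKM (SD, n = 3).

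The members differed between the libraries about as much as other transcripts. Among those with at least 100 reads, the ratio of highest to lowest library had a median of 1.49, against 1.47 for matched transcripts as a whole. More than a 2-fold spread was seen in 18 of 110, or 16.4%, against the same 21.5% of all. Leaving out library C took this count to 4, leaving out library B to 10 and leaving out library A to 11. A spread over fewer libraries cannot exceed that over all of them, so this count could not rise. By species matched, 9 of 68 members matched to P. strigosozonata exceeded 2-fold, against 15.0% of all such transcripts, and 9 of 38 matched to T. versicolor did, against 22.3%. These shares are close to those of all transcripts.

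The largest spread belonged to 3 aldo/keto reductase transcripts of read cluster DN17348, all matched to the same T. versicolor entry. TRINITY_DN17348_c0_g2_i1 (642 bp) had 376, 231 and 9 reads across A, B and C, or 5.24, 5.28 and 0.218 RPKM, a 24.2-fold spread. TRINITY_DN17348_c0_g3_i1 (616 bp) had 330, 232 and 10 reads, a 21.9-fold spread, and TRINITY_DN17348_c0_g1_i1 (650 bp) had 361, 222 and 17 reads, a 12.3-fold spread. All 3 were level in libraries A and B and low in library C. They were the only members with more than a 10-fold spread, 3 of 110 against 1.22% of all transcripts with at least 100 reads, and as parts of 1 read cluster they are not 3 independent cases. The next largest spread was 6.39-fold, for TRINITY_DN12054_c0_g1_i1.

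The smallest spreads were those of TRINITY_DN27805_c2_g3_i1 at 7.26, 7.09 and 7.08 RPKM, TRINITY_DN28419_c0_g1_i4 at 10.9, 10.4 and 11.0 RPKM, and TRINITY_DN27805_c2_g4_i1, given above. All 3 are aldo/keto reductases matched to P. strigosozonata, and their highest library was 1.03, 1.05 and 1.06 times the lowest. The first and last of them share their read cluster with TRINITY_DN27805_c1_g1_i1, whose highest library was 1.78 times its lowest.

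**Figure D4:**
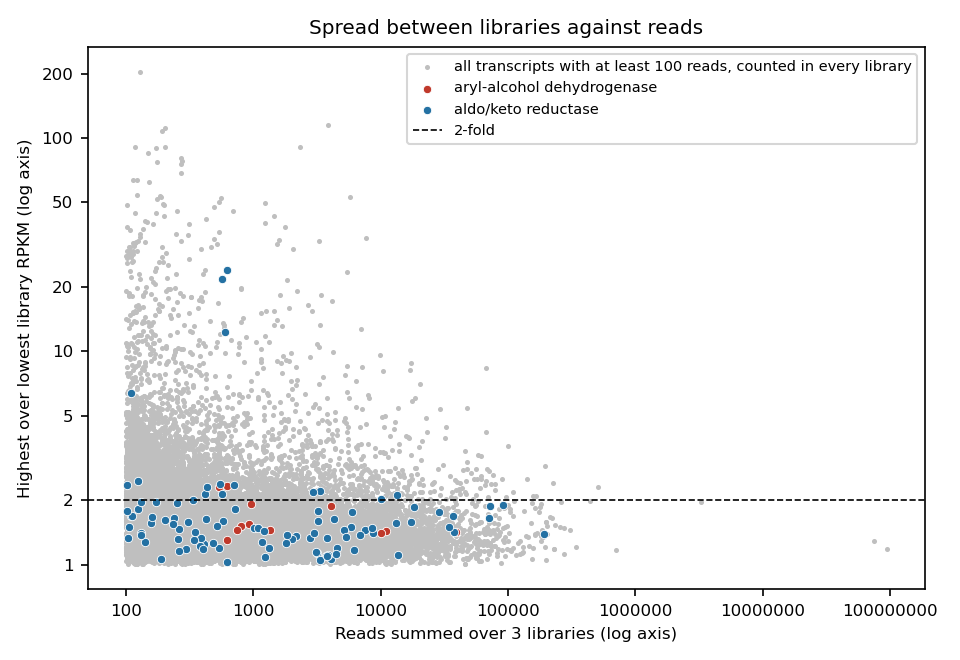
Ratio of the highest to the lowest library RPKM (log axis) against reads summed over 3 libraries (log axis), for transcripts with at least 100 reads that were counted in every library; all transcripts are grey and members coloured by product name, with a dashed line at 2-fold. The members lie within the grey cloud, 18 of 110 above the line, and the 3 transcripts of DN17348 stand at 12.3-fold to 24.2-fold.

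A larger share of members than of other transcripts was highest in library B. This held for 59 of 110 members, or 53.6%, against 39.8% of all transcripts with at least 100 reads, and 9 of these 59 were among the 12 aryl-alcohol dehydrogenases. Library A was highest for 19 members (17.3%), against 30.8% of all transcripts, and library C for 32 (29.1%), against 29.4%. The dominant 2 transcripts took their smallest share in library B, and relative to the counts outside them 44 members were highest there, or 40.0%, against 30.1% of all. The number thus depended on the total used for scaling. The members' share was above that of all transcripts under both totals, which were applied to the same counts. Under the second, 30 of 68 P. strigosozonata matches (44.1%) were highest in library B. For T. versicolor it was 12 of 38 (31.6%), near the share of all transcripts. Isoforms and parts of shared read clusters are among the 110 members, so these are not independent cases.

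Reads confined to 1 library were rare. Of 160 members with at least 20 reads, 2 drew over 90% of depth-scaled reads from library A, against 1.06% of all transcripts. None had so in library B, against 0.224%, or in library C, against 0.044%. The 2 were the aldo/keto reductases TRINITY_DN14260_c0_g1_i1, with 65, 0 and 4 reads, and TRINITY_DN1844_c0_g1_i1, with 45, 3 and 0 reads. Both were matched to T. versicolor, and neither reached 1 RPKM in any library.

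Families that share substrates or cofactors with the members were then set beside them, with no test since each library gives 1 value per family. The members' sum was 1.02, 1.28 and 1.35 times that of the 88 class II peroxidases, the secreted enzymes that oxidise lignin, in libraries A, B and C. These peroxidases averaged 3237 ± 346 RPKM (SD, n = 3), which overlaps the members' 3924 ± 574 RPKM. With matches to P. strigosozonata alone, the members stood lower in every library, at 0.752, 0.898 and 0.977 times the peroxidases, so the order of the families depends on the species matched. The name of aryl-alcohol oxidases, which oxidise the alcohols that aryl-alcohol dehydrogenases form, was carried by 2 transcripts only, isoforms of 1 assembler gene. These stood at 1.07, 0.513 and 0.718 RPKM in sum. The higher of them, TRINITY_DN26993_c0_g1_i2, had 94, 17 and 30 reads. Other oxidoreductases of the same GMC family, 48 transcripts, reached 171 ± 38.1 RPKM, and copper radical oxidases, another source of hydrogen peroxide, 490 ± 81.4 RPKM (SD, n = 3 each). A single transcript, TRINITY_DN28637_c0_g1_i1 at 148 ± 35.9 RPKM (SD, n = 3), held 86.5% of the sum of the 48. Whether any of the 48 is an aryl-alcohol oxidase under a broader name was not tested. The members' sum was 23.7 ± 5.65 times that of these GMC oxidoreductases and 8.07 ± 1.02 times that of the copper radical oxidases, but 9.59 ± 2.15 and 2.79 ± 0.359 times without the division by length (SD, n = 3 each).

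Aldehyde dehydrogenases, which oxidise aldehydes to acids where the members reduce carbonyls, comprised 47 transcripts with 963 ± 229 RPKM (SD, n = 3). The members' sum was 4.36, 3.72 and 4.32 times theirs, and 2.30 ± 0.232 times (SD, n = 3) without the division by length. Their highest transcript, TRINITY_DN27175_c2_g1_i1, stood at 290, 560 and 460 RPKM, below the leading aldo/keto reductase in each library. Dehydrogenases of sugar phosphates and isocitrate, among them sources of NADPH, gave 226 ± 22.6 RPKM over 17 transcripts, and quinone reductases and related flavin oxidoreductases, 14 transcripts, gave 238 ± 25.7 RPKM (SD, n = 3 each). The members' ratio to the dehydrogenases of sugar phosphates and isocitrate was 17.4 ± 1.87, and 6.76 ± 0.724 without length (SD, n = 3 each). The 25 transcripts named after other alcohol dehydrogenases, 1 of which is a transcriptional effector by its name, summed to 62.2 ± 6.55 RPKM. Phenylalanine ammonia-lyases, which open the route from phenylalanine to aryl compounds, summed to 9.44 ± 1.01 RPKM over 16 transcripts (SD, n = 3 each). The 3 transcripts with other names of the aldo/keto reductase fold, norsolorinic acid reductase and D-xylose reductase, stayed near 0 and had no reads in library B.

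**Figure D5:**
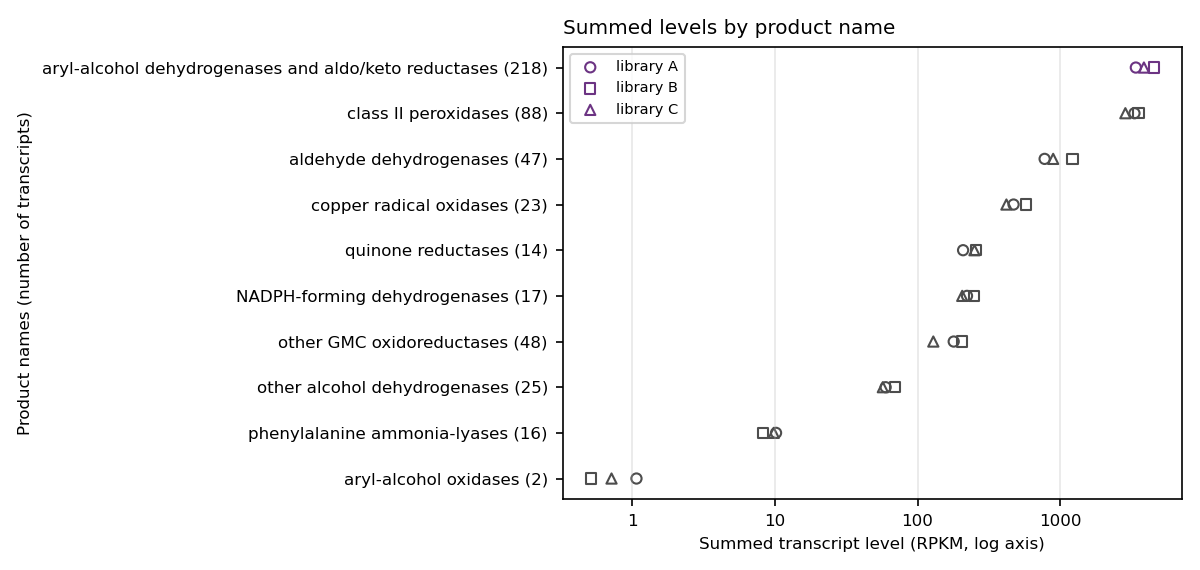
Summed RPKM (log axis) of the 218 members, in the first row, and of related families by product name, with a symbol for each of the 3 libraries and the number of transcripts in parentheses. The members lie between 3386 and 4528 RPKM, beside the class II peroxidases. The 2 aryl-alcohol oxidase transcripts, of 1 assembler gene, lie at or below 1.07 RPKM in sum. The family without reads in library B is not drawn.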

How the data were processed

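The authors deposited a table of whole-number read counts per assembled transcript, with transcript lengths, for 3 libraries. The submitters' processing notes name SAMtools 0.1.19, Bowtie2 2.2.6 and cutadapt 1.2.1. Neither the assembler nor the way reads were counted is stated in the sources used here. With strand use unknown, reads from overlapping antisense transcripts or near-identical copies could not be told apart. The count columns have no names and were assigned to the group but not to replicate numbers.

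A deposited annotation table gave each transcript's best match. Repeated lines were removed, which left 22605 transcripts of 29875 lines. Product names were read without regard to case or word separator. Counts were divided by library total and length for RPKM, or by the total without the 2 dominant transcripts for residual CPM. The floor of 3 counts corresponds to 0.0268, 0.0440 and 0.0467 CPM in libraries A, B and C. This floor and the exact (Clopper-Pearson) 95% intervals take in counting error alone, as PCR copies carried no mark.

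No test was made, since all libraries form 1 group. Named members are the 20 highest of at least 300 bp and 100 reads with their isoforms, the highest of each product name and species, and the 3 with the largest and the 3 with the smallest spread among those with at least 100 reads. For each related family the highest transcript of at least 300 bp and 100 reads was taken. Others are named where a count of 5 or fewer needed it, or as parts of a matched entry or gene described, chosen after their values were seen. The members, the word lists of related families and the tests were chosen with earlier results of these data known. Totals scaled by TMM (edgeR 4.0.16) and by size factors (DESeq2 1.42.0), other limits on reads and length, sums by assembler gene, P. strigosozonata matches alone and leaving out each library served as alternatives. Scripts (Python 3.11.15, R 4.3.3) were tested on simulated data. Transcript sequences were not used here.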

Additional observations from a re-analysis of the deposited data

How the results depend on the processing

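Values are means over 3 libraries. The members' sum of 3924 RPKM became 2808 with P. strigosozonata matches alone, 12528 per 1000000 counts outside the 2 dominant transcripts and 11708 on that total without length. The aryl-alcohol dehydrogenases' sum of 406 RPKM became 302 with transcripts of at least 500 bp and 1296 on the residual total. That of the aldo/keto reductases, 3518 RPKM, became 2414 with P. strigosozonata matches and 11232 on the residual total. Their ratio of 0.116 became 0.0951 with at least 500 bp, 0.164 with P. strigosozonata matches and 0.0864 without length. The highest member's share of 18.1% became 25.2% with P. strigosozonata matches. The median member, 0.866 RPKM, became 1.50 with at least 10 reads, 4.88 with at least 500 bp, 2.15 with P. strigosozonata matches, 0.636 by assembler gene and 2.77 on the residual total.

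The count of 18 members over 2-fold became 53 with at least 20 reads and 4 with at least 1000 reads. It was 4 to 11 when a library was left out, a step that cannot raise it. It was 9 without T. versicolor matches, an alternative chosen after seeing the data. The 2 members with over 90% of reads in library A became 0 at 100 reads. The members' ratio to class II peroxidases, 1.22, became 0.876 with P. strigosozonata matches alone, also tried after seeing the data. In each case the alternative differs by the transcripts, libraries or total it uses. TMM and DESeq2 scaling kept the means of the 28 members named by rule within 1 SD. Both sets of totals had been set to the same mean as the deposited totals, so these means could move little. No paired analysis was possible because the libraries form 1 group and the count columns carry no replicate numbers. Depth limits the 35 members with fewer than 10 reads, whose levels and absences cannot be read.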
